A study of Mus musculus with 24 samples.

Results

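A set of 10 mouse genes that mark the change from the fetal to the adult heart were followed across postnatal hearts that lacked Xinβ or carried it, with and without an active form of YAP. They were taken by name and Ensembl identifier: Nppa, Nppb, Myh6, Myh7, Acta1, Actc1, Tnni1, Tnni3, Myl4 and Myl7. All 10 were listed among the 15667 genes of the table for uninjected hearts and the 15327 genes of the table for injected hearts. Levels are read counts relative to the authors' scaled library sizes, written CPM, and a gene was tested when its level passed 1 CPM in at least 4 of 8 uninjected or 8 of 16 injected libraries. All 10 genes were tested in uninjected hearts and 9 in injected hearts, where Myl7 fell short of the filter.

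The hearts came from mice at postnatal day 7.5, labelled as heart apex, while the methods describe ventricular tissue. Xinβ KO mice carry a germline replacement of part of Xirp2, the gene for Xinβ, by a LacZ-Neo cassette on a C57BL6 background, so every cell of the animal lacks the protein, and the WT animals were control littermates. There were 6 groups of 4 libraries. According to the methods, males and females were mixed equally in each group. WT and KO hearts without an injection formed the first experiment. In the second, WT and KO pups received AAV9 at postnatal day 1, carrying either GFP or aYAP(S127A), a human YAP that the Hippo kinases cannot switch off at this residue, both driven by a cardiac troponin T promoter that works in cardiomyocytes. The 4 injected groups are called WT GFP, KO GFP, WT aYAP and KO aYAP. The 2 experiments were sequenced at different sites with different read lengths and scaled separately, so their levels are set side by side and tests stay within each.

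In rodents the ventricle replaces one set of contractile proteins with another around birth. The slow β-myosin heavy chain (Myh7) gives way to the fast α-myosin heavy chain (Myh6), slow skeletal troponin I (Tnni1) gives way to cardiac troponin I (Tnni3), and skeletal α-actin (Acta1) gives way to cardiac α-actin (Actc1). The essential light chain Myl4 and the regulatory light chain Myl7 are made throughout the fetal heart or its atria and then remain in the atria, and the natriuretic peptides ANP (Nppa) and BNP (Nppb) withdraw from the ventricle after birth, to return when it is under load. YAP acts on DNA through TEAD factors, which recognise the MCAT motif.

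Several of these genes lie beside each other in the genome. In the GENCODE annotation of GRCm38, Nppb (ENSMUSG00000029019) occupies chr4:147985788-147987205 on the plus strand and Nppa (ENSMUSG00000041616) chr4:148000722-148002079, 13516 bases further on. Myh6 (ENSMUSG00000040752) occupies chr14:54941921-54966927 and Myh7 (ENSMUSG00000053093) chr14:54970684-54994626, both on the minus strand with 3756 bases between them. Tnni1 (ENSMUSG00000026418) lies at chr1:135779434-135810989 and Tnni3 (ENSMUSG00000035458) at chr7:4518305-4524229. Acta1 (ENSMUSG00000031972) lies at chr8:123891769-123894751, Actc1 (ENSMUSG00000068614) at chr2:114047282-114053548, Myl4 (ENSMUSG00000061086) at chr11:104550663-104595753 and Myl7 (ENSMUSG00000020469) at chr11:5896637-5898782.

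The MCAT motif was searched as CATTCC or GGAATG, that is on both strands, in the 250 bases before each RefSeq gene start (GRCm38.p6). The 10 genes had 12 such windows, since Myh7 and Tnni1 have 2 RefSeq starts each. The motif was found in 5 of the 12 windows, 1 for each of 5 genes, and in 12.6% of 32851 windows of all genes, and the window of the other Myh7 start did not hold it. The stretches below are shown because they hold the motif, in capitals, in genes whose levels are described with and without active YAP; a match is a run of letters and not a measured binding site. Each reads 5′ to 3′ on the strand of its gene. The RefSeq starts of Nppb and Myh6 lie downstream of the GENCODE starts, so that their windows overlap GENCODE exons by 112 and 34 bases and their stretches lie within the GENCODE gene spans, that of Nppb but for its first bases.
Nppb, chr4:147985785-147985810, plus strand, 105 bases before the start: tcagccggcaGGAATGcagctgataa
Acta1, chr8:123894806-123894831, minus strand, 46 bases before the start: agggcagcaaCATTCCttcggggcgg
Myl7, chr11:5898837-5898862, minus strand, 70 bases before the start: cccaatcatcCATTCCtctccttatt
Myh6, chr14:54966798-54966823, minus strand, 206 bases before the start: ttggggaggaGGAATGtgcccaagga
Myh7, chr14:54994812-54994837, minus strand, 201 bases before the start: agtgagccgtGGAATGttagagatat
Nppa, Actc1, Tnni1, Tnni3 and Myl4 held neither spelling in their windows. A CArG box, the site of serum response factor, was found in the windows of Acta1, Actc1 and Myl7, against 1.47% of all windows.

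The whole windows of 3 genes that passed a test in injected hearts are given for context, as RefSeq sequence with the MCAT motif in capitals where there is one. None of the 3 overlaps a GENCODE exon.
Myh7, chr14:54994627-54994876, minus strand: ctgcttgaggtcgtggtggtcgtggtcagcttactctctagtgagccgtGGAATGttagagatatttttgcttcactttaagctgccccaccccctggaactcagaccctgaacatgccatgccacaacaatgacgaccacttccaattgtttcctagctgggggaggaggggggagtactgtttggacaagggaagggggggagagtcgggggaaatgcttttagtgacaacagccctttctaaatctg
Nppa, chr4:148000472-148000721, plus strand: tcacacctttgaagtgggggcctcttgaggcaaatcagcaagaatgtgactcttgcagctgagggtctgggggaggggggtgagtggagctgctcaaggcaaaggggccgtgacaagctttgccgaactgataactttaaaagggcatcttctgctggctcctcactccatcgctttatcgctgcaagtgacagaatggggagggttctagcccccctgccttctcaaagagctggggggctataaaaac
Myl4, chr11:104550413-104550662, plus strand: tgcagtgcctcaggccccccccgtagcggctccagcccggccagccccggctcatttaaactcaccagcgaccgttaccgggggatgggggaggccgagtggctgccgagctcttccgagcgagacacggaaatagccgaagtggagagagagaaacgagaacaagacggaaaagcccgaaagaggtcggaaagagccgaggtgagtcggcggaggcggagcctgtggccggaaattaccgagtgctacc

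Myh6 and Myh7 share so much coding sequence that short reads cannot always be told apart. Of all stretches of 50 bases in the Myh7 transcript, 22.2% were identical to a stretch of Myh6, and of all stretches of 150 bases 5.43%. The longest run shared within 1 exon of each was 200 bases, at chr14:54944348-54944547 in exon 36 of Myh6 and at chr14:54972758-54972957 in exon 38 of Myh7. It is shown because a read inside it cannot be placed.
Myh6 and Myh7, shared: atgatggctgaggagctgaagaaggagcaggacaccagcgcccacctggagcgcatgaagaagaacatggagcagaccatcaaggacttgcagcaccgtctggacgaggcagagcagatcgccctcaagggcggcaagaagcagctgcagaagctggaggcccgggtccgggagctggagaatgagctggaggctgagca
The shared stretches limit the Myh7 to Myh6 ratio. Among the other 8 genes, Acta1 shared 2.22% of its stretches of 50 bases with the gene model Gm47692 and the remaining 7 shared none with another gene.

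Xirp2, the targeted gene, was at 106 to 168 CPM in WT uninjected hearts and at 0.291 to 0.692 CPM in KO uninjected hearts. In injected hearts it was at 56.0 to 149 CPM in WT libraries and at 0 to 0.972 CPM in KO libraries, so no library went against its genotype. Between 20490875 and 31154155 reads lay behind each uninjected library and between 15015038 and 19444404 behind each injected one. KO GFP replicates 1 and 4 stood apart from replicates 2 and 3 in Myh7, Tnni1 and Myl7, so their values are given library by library, and fitted differences of the main results are also given without them. Since these 2 libraries were picked by those genes, smaller differences of Myh7 and Tnni1 without them follow from the choice and are no test. The tissue label was checked against marker genes. The summed level of 6 ventricular markers was at least 7934 CPM in every library, while 8 listed atrial markers together reached at most 105 CPM in uninjected hearts and 5 listed ones at most 116 CPM in injected hearts. Of the atrial markers Sln, the atrial calcium pump regulator, reached 4.45 CPM in uninjected hearts, and it was not listed in the table for injected hearts. The atrial light chain Myl7 was at 20.4 to 68.0 CPM in uninjected libraries and at 0.217 to 5.18 CPM in injected ones. The similar sums of listed markers thus do not show that the experiments held equal atrial tissue, and its part was not tested.

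The adult isoforms dominated every group. Per kilobase of transcript, cardiac actin Actc1 was the highest of the 10 genes in all 6 groups, with group means of 6324 to 9354 CPM per kb, followed by Myh6 at 4335 to 5570 and Tnni3 at 1631 to 2269. The library ranges of Actc1 and Myh6 overlapped in KO GFP hearts, where the lowest Actc1 value was 5384 and the highest Myh6 value 5760 CPM per kb, and in no other group. Below these, Myh7 was the higher of the fetal isoforms in uninjected hearts (761 against 497 CPM per kb for Tnni1 in WT) and Tnni1 in injected hearts (334 against 224 CPM per kb for Myh7 in WT GFP). The library ranges of Myh7 and Tnni1 overlapped in KO uninjected and KO GFP hearts and not in the other 4 groups. In KO aYAP hearts Nppb, at a mean of 246.5 CPM per kb, came before Myh7 at 198, with overlapping ranges. Acta1 and Myl4 were always among the 3 lowest, and Myl7 was the lowest in every injected group.

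**Figure D1:**
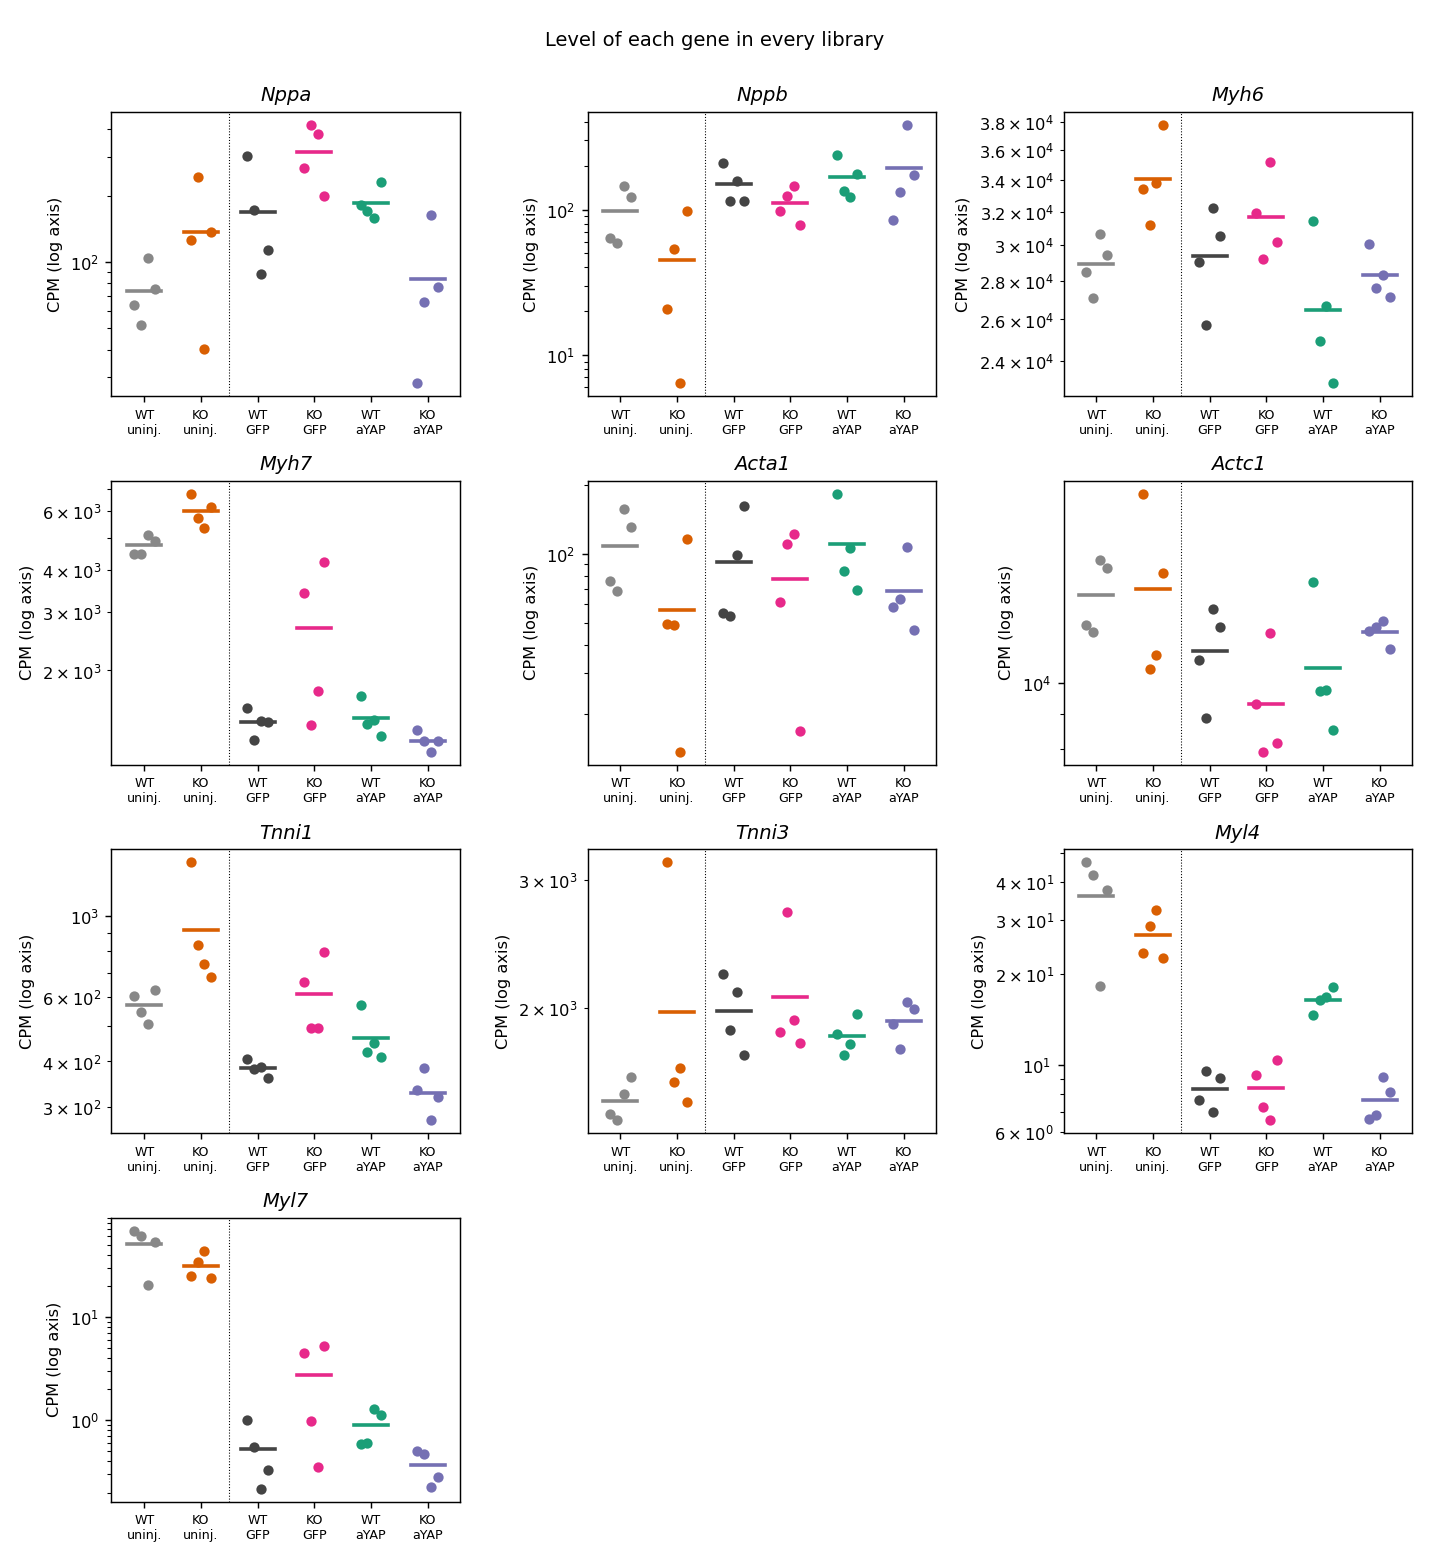
Level of each of the 10 genes in every library, in CPM on a log axis, by group. Points are libraries in replicate order, bars are group means (n = 4), and the dotted line separates the 2 experiments, which were scaled separately. Myh7 in KO GFP hearts splits between 1372 and 4218 CPM, and Myl4 in WT aYAP hearts lies above the other injected groups.

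Between KO and WT uninjected hearts, both myosin heavy chains and the slow troponin I were higher in every KO library than in any WT library, yet none of the 10 genes passed the test across all genes. The limma test on log2(CPM + 1) called 6.69% of 15598 tested genes at a Benjamini-Hochberg adjusted p under 0.05, and 0 of the 10. At an unadjusted p under 0.05 it counted 2 of the 10, Myh7 and Tnni1, against 22.5% of all genes, the edgeR fit on recovered reads called none of the 10, and DESeq2 on the same reads called Myh7 (adjusted p = 0.02) and Tnni1 (adjusted p = 0.037). Groups that did not overlap, with KO the higher, were found for 3 of the 10 genes and for 8.01% of all tested genes.

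Myh7, the fetal myosin, was at 6776, 5722, 5344 and 6161 CPM in KO uninjected hearts and at 4478, 4484, 5112 and 4902 CPM in WT uninjected hearts. The lowest KO value lay above the highest WT value by a small margin. The difference was 0.34 on the log2 scale (SE 0.11), with an adjusted p of 0.12. Myh6, the adult myosin, was at 33416, 31197, 33789 and 37791 CPM in KO and 28514, 27071, 30648 and 29435 CPM in WT, again without overlap. Its difference was 0.23 (SE 0.13), with an adjusted p of 0.33, and its sign turned under quantile normalization.

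Tnni1, the slow troponin I, was at 1401, 834, 737 and 680 CPM in KO uninjected hearts and 606, 547, 507 and 628 CPM in WT uninjected hearts. KO replicate 1 was far above the other 3 KO libraries, which themselves lay above all 4 WT libraries. The difference was 0.62 (SE 0.21, adjusted p = 0.12), and without KO replicate 1 it was 0.39 with an adjusted p of 0.047. Tnni3, its adult counterpart, was at 3177, 1580, 1651 and 1482 CPM in KO and 1425, 1398, 1522 and 1604 CPM in WT, so the same KO library was the high one and the groups overlapped. KO replicate 1 also stood apart beyond the troponins, with ventricular markers summing to 19278 CPM against 10242 to 11167 CPM in the other KO libraries.

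The natriuretic peptides and skeletal actin spread most widely among KO uninjected hearts. Nppb was at 20.5, 54.0, 6.39 and 98.1 CPM in KO and 63.8, 58.6, 146 and 123 CPM in WT, and Acta1 at 49.3, 48.6, 13.6 and 116 CPM in KO and 75.7, 68.4, 158 and 131 CPM in WT. In both genes KO replicate 3 was the lowest and KO replicate 4 the highest of the KO libraries. The KO difference was -1.59 for Nppb (SE 0.72, adjusted p = 0.23) and -1.18 for Acta1 (SE 0.56, adjusted p = 0.25). Nppa went the other way, at 126, 243, 40.1 and 137 CPM in KO and 63.7, 51.4, 104 and 75.5 CPM in WT, with a difference of 0.67 (SE 0.47, adjusted p = 0.47). KO replicate 3 was the lowest library of all 8 for Nppa as well. Without it the differences were -0.90 for Nppb, -0.63 for Acta1 and 1.17 for Nppa. Without KO replicate 4 they were -2.15 for Nppb and -1.63 for Acta1, and without KO replicate 2 that of Nppa was 0.31. None of these passed the test.

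The atrial light chains went together from library to library. Myl4 was at 23.3, 28.7, 32.5 and 22.4 CPM in KO uninjected hearts and 46.6, 42.2, 18.2 and 37.6 CPM in WT, and Myl7 at 24.8, 33.6, 43.5 and 23.6 CPM in KO and 68.0, 60.6, 20.4 and 52.9 CPM in WT. WT replicate 3 was the lowest of the 8 libraries for both genes. Sln moved with them, at 1.02 to 4.08 CPM in KO and 4.45, 4.44, 1.43 and 2.84 CPM in WT, and the part of atrial tissue in these values was not tested. The KO difference was -0.36 for Myl4 (adjusted p = 0.51) and -0.58 for Myl7 (adjusted p = 0.40). Without WT replicate 3 they were -0.65 and -0.96, without WT replicate 1 they were -0.21 and -0.40, and with the atrial marker level as a covariate they were -0.067 and -0.18, none of them called. Actc1 ranged from 10494 to 19044 CPM over the 8 libraries, with KO replicate 1 the highest.

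Between KO GFP and WT GFP hearts, 2 of the fetal contractile isoforms rose, Tnni1 and Myh7, and the call of Myh7 depended on the fit. Acta1 and Myl4 did not pass the test, and neither did an adult isoform, although quantile normalization called Actc1 lower (-0.60, limma adjusted p = 0.049). Tnni1 and Myh7 passed the test, both higher in KO, against 13.7% of all 14597 tested genes called and 6.43% called higher, and 7 of the 9 tested members did not pass. Tnni1 was at 661, 494, 493 and 795 CPM in KO GFP hearts and 407, 382, 387 and 360 CPM in WT GFP hearts. The groups did not overlap, as was so for 1 of 9 members and 7.32% of all tested genes with KO the higher. It rose by 0.64 on the log2 scale (SE 0.15, adjusted p = 0.0085), a fold of mean CPM of 1.59.

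Myh7 was at 3413, 1372, 1730 and 4218 CPM in KO GFP hearts and 1545, 1236, 1410 and 1403 CPM in WT GFP hearts. KO replicates 1 and 4 were far above every WT library, KO replicate 3 was slightly above them and KO replicate 2 lay among them. The difference was 0.79 (SE 0.25, adjusted p = 0.046), and the call was lost in 14 of 16 fits that left out 1 library. Without KO replicate 1 the difference was 0.63 and without KO replicate 4 it was 0.53, both with an adjusted p of 0.15. The call was also lost under quantile normalization (0.72), plain CPM scaling (0.68), limma without its trend and a fit of only these groups. With KO GFP replicates 2 and 3 alone the difference was 0.14 for Myh7 and 0.36 for Tnni1.

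The same 2 KO GFP libraries were high for Myl7. The gene was at 4.47, 0.981, 0.351 and 5.18 CPM in KO GFP hearts and at 1.02, 0.558, 0.217 and 0.329 CPM in WT GFP hearts, from 4 to 94 reads a library, and was not tested because of the filter. Myl4 was at 9.25, 7.26, 6.55 and 10.4 CPM in KO GFP and 7.65, 9.54, 6.96 and 9.04 CPM in WT GFP, so these groups overlapped fully.

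Nppa was at 266, 417, 381 and 198.6 CPM in KO GFP hearts and 302, 172, 87.8 and 113 CPM in WT GFP hearts, the highest values lying in KO replicates 2 and 3. The difference was 1.00 (SE 0.42), with an adjusted p of 0.14. Nppb, its neighbour, was at 97.9, 124, 146 and 77.7 CPM in KO GFP and 210, 115, 156 and 115 CPM in WT GFP, a difference of -0.41 (SE 0.35, adjusted p = 0.50). It was -0.23 without WT GFP replicate 1, -0.25 without KO GFP replicate 4 and -0.097 with KO GFP replicates 2 and 3 alone. The adult isoforms overlapped between these groups: Myh6 ranged from 29215 to 35208 CPM in KO GFP and from 25705 to 32232 CPM in WT GFP, and Tnni3 from 1789 to 2713 and from 1722 to 2223 CPM.

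With active YAP in KO hearts, 3 of the fetal genes fell and no member rose. The 3 were Tnni1, Nppa and Myh7, of 9 tested, while 14.8% of all tested genes were called and 6.92% were called lower. Tnni1 was at 334, 384.8, 276 and 319 CPM in KO aYAP hearts, each below the lowest KO GFP library, and fell by 0.87 on the log2 scale (SE 0.15, adjusted p = 0.0011). Myh7 was at 1325, 1232, 1142 and 1227 CPM in KO aYAP hearts, also below every KO GFP library, although KO GFP replicate 2 at 1372 CPM was close. It fell by 0.97 (SE 0.25, adjusted p = 0.016). Groups that did not overlap, with aYAP the lower, were found for these 3 members and for 8.52% of all tested genes.

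The fall of Myh7 lost its call in 1 of 16 fits that left out 1 library. It was -0.81 without KO GFP replicate 1 (adjusted p = 0.059) and -0.71 without KO GFP replicate 4 (adjusted p = 0.044). It also lost its call in a fit of only these groups (adjusted p = 0.082). With KO GFP replicates 2 and 3 alone the difference was -0.33 for Myh7 and -0.60 for Tnni1.

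Nppa was at 28.1, 65.7, 163 and 76.9 CPM in KO aYAP hearts, against 198.6 CPM in the lowest KO GFP library. It fell by 2.11 (SE 0.42, adjusted p = 0.0037), the largest difference of a tested member between any pair of groups, and was called in every alternative fit, with values between -2.51 and -1.68. With KO GFP replicates 2 and 3 alone, which hold the highest Nppa values of that group, the difference was -2.50, and the larger fall follows from that choice. Nppb in the same libraries was at 84.9, 131, 381 and 173 CPM, so KO aYAP replicate 3 held the highest value of both peptides in its group. Its difference from KO GFP was 0.60 (SE 0.35, adjusted p = 0.27). With 1 library left out the difference of Nppb ran from 0.20, without KO aYAP replicate 3, to 0.91, without KO aYAP replicate 1, and was called in none of these 16 fits.

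A transcript on the opposite strand followed Nppa. Gm13054, at chr4:148001091-148004014 on the minus strand, overlaps Nppa, and in KO aYAP hearts it fell by 2.21 (SE 0.40, adjusted p = 0.0019) from a mean of 116 to 27.4 CPM. Its level was 29.4% to 38.9% of that of Nppa in the 16 injected libraries but 0.617% to 4.11% in the 8 uninjected libraries. Mhrt, the antisense transcript over the end of Myh7, likewise stood at 13.5% to 47.3% of Myh7 in injected libraries and 6.40% to 10.3% in uninjected ones. The libraries were strand-specific, but the strand setting of the counting is not given in the sources used here, so reads of these overlapping pairs may have been shared between them.

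The adult members did not pass the test between KO aYAP and KO GFP hearts. Actc1 was at 11244 to 12363 CPM in KO aYAP and at 9318, 7930, 11850 and 8160 CPM in KO GFP, a difference of 0.37 (SE 0.17, adjusted p = 0.16). That gene was called under quantile normalization, at 0.73, and under plain CPM scaling, at 0.50. Myh6 was at 27145 to 30075 CPM in KO aYAP and Tnni3 at 1752 to 2036 CPM, both overlapping KO GFP. Acta1 was at 58.7, 63.4, 107 and 46.4 CPM in KO aYAP and 61.4, 111, 123 and 16.8 CPM in KO GFP, with the extremes of both groups in KO GFP. Myl7 was at 0.229 to 0.507 CPM in KO aYAP hearts, from 4 to 9 reads a library.

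**Figure D2:**
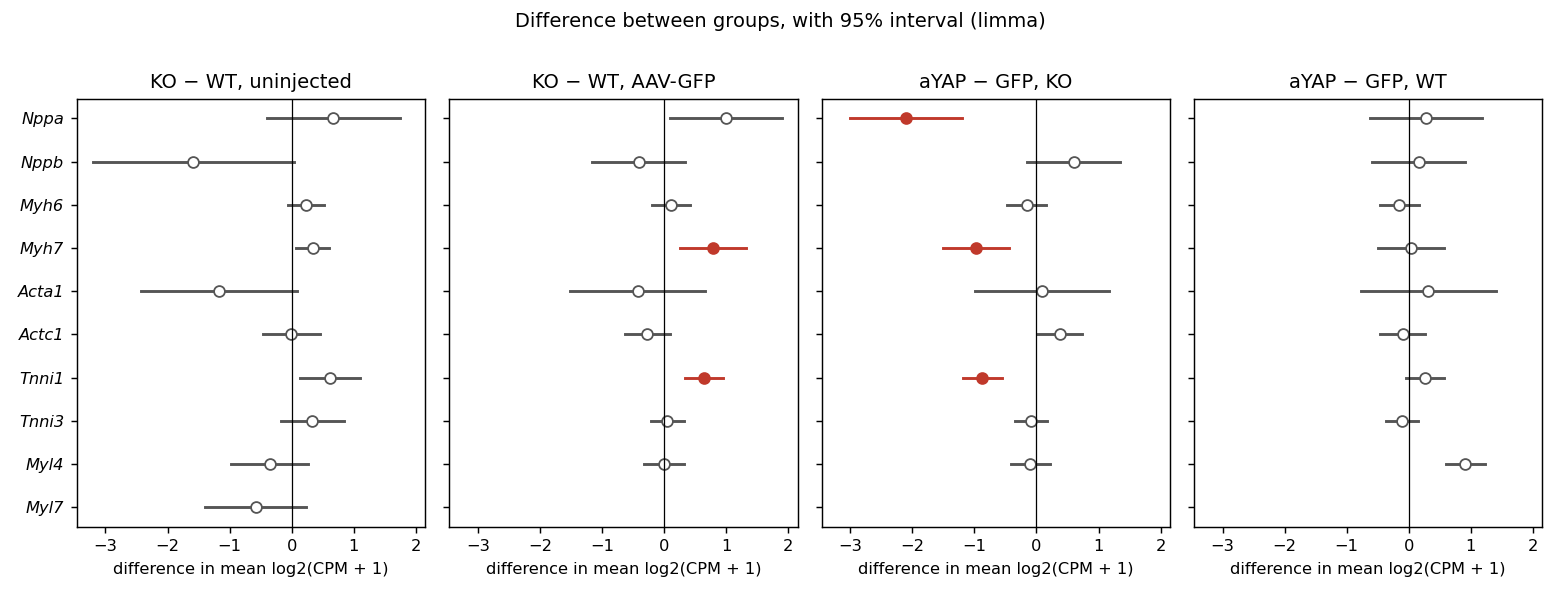
Difference in mean log2(CPM + 1) between groups for each gene, with its 95% interval from limma, in 4 comparisons (4 libraries a group). Filled red points passed an adjusted p of 0.05, open grey points did not, and Myl7 was not tested in injected hearts. Tnni1 and Myh7 lie to the right in KO GFP against WT GFP and to the left in KO aYAP against KO GFP, while Myl4 lies to the right in WT aYAP against WT GFP.

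In WT hearts with active YAP, limma called no member and DESeq2 called Myl4. limma called 0 of 14597 genes, with 6.93% (1011 genes) at an unadjusted p under 0.05, edgeR called 0 and DESeq2 called 11. The largest difference of a member was that of Myl4, which had the smallest p-value of all tested genes. Myl4 was at 14.5, 16.3, 16.7 and 18.05 CPM in WT aYAP hearts and 7.65, 9.54, 6.96 and 9.04 CPM in WT GFP hearts, from 128 to 275 reads a library. The lowest WT aYAP library was thus well above the highest WT GFP library. The difference was 0.91 (SE 0.15, limma adjusted p = 0.20), and DESeq2 on the recovered reads gave 0.99 with an adjusted p of 0.00018.

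Myl4 was not at this level in any other injected group. It was at 6.60, 6.84, 9.09 and 8.12 CPM in KO aYAP hearts, below every WT aYAP library by a difference of -1.01 (SE 0.15, adjusted p = 0.018), where 0.0411% of all tested genes were called. The call of Myl4 was lost in 5 of the 16 fits that left out 1 library, with adjusted p between 0.062 and 0.093. Myl7, the other atrial light chain, was at 0.593, 0.603, 1.28 and 1.12 CPM in WT aYAP hearts, from 10 to 20 reads a library, and the listed atrial markers summed to 87.7 to 116 CPM there, against 95.6 to 104 CPM in WT GFP hearts. Summed markers of 2 other tissues were also higher in WT aYAP than in WT GFP hearts without overlap, and those of skeletal muscle overlapped between WT aYAP and KO aYAP. The 3 epicardial markers in the table, of 4 listed, summed to 21.05 to 27.9 CPM in WT aYAP, 10.9 to 19.9 CPM in WT GFP and 13.2 to 17.7 CPM in KO aYAP, and the 3 skeletal muscle markers in the table, of 9 listed, to 4.08 to 8.60 CPM in WT aYAP, 2.69 to 3.75 CPM in WT GFP and 2.63 to 5.95 CPM in KO aYAP. Their part in the values of Myl4 was not tested.

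Tnni1 was at 569, 426, 450 and 412 CPM in WT aYAP hearts, above all 4 WT GFP libraries, with a difference of 0.26 (SE 0.15, adjusted p = 0.78), or 0.16 without WT aYAP replicate 1. Groups that did not overlap, with aYAP the higher, were found for Myl4 and Tnni1 and for 2.12% of all tested genes. In KO aYAP hearts Tnni1 lay below every WT aYAP library, a difference of -0.50 (SE 0.15, adjusted p = 0.29). KO aYAP lay below WT aYAP without overlap for Myl4 and Tnni1 of the 9 tested members and for 4.72% of all tested genes. The other members overlapped between WT aYAP and WT GFP: Nppa at 159 to 231 CPM in WT aYAP, Nppb at 122 to 236, Myh7 at 1275 to 1676, Myh6 at 23001 to 31399, Acta1 at 69.8 to 183, Actc1 at 8544 to 14098 and Tnni3 at 1723 to 1958 CPM.

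KO aYAP and WT GFP hearts gave no call among the 10 genes, with 0.0206% of all tested genes called. limma counted 1 member at an unadjusted p under 0.05, against 6.08% of all tested genes. It was Nppa, with a difference of -1.11 (SE 0.42, adjusted p = 0.76), which was -0.68 without KO aYAP replicate 1. The edgeR and DESeq2 fits on recovered reads called no member either. Nppa also stood lower in KO aYAP than in WT aYAP hearts, by -1.38 (SE 0.42, adjusted p = 0.29), where KO aYAP replicate 3 at 163 CPM reached into the WT aYAP range.

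The response to active YAP differed between the genotypes for 3 members. The change with aYAP in KO minus that in WT was -1.13 for Tnni1 (SE 0.21, adjusted p = 0.0044), -1.01 for Myl4 (SE 0.21, adjusted p = 0.010) and -2.38 for Nppa (SE 0.60, adjusted p = 0.026), while 7.56% of all tested genes were called. With KO GFP replicates 2 and 3 alone the 3 values were -0.86, -0.79 and -2.78, and the choice of libraries bears on them as above. Myh7 gave -1.01 (SE 0.36) with an adjusted p of 0.095, and was called in 2 of 28 alternative fits, without KO GFP replicate 2 (-1.28, adjusted p = 0.011) and with DESeq2 (-1.17, adjusted p = 0.014). For Tnni1 the difference combined a fall in KO with a higher level in WT, for Nppa a fall in KO with overlapping groups in WT, and for Myl4 overlapping groups in KO with a higher level in WT. The call of Nppa was lost without WT GFP replicate 4 (adjusted p = 0.051), without WT aYAP replicate 4 (0.056), with edgeR (0.05) and with the replicate number as a block (0.052).

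The ratio of a fetal to an adult isoform within a library does not depend on how libraries were scaled. In CPM, Myh7 over Myh6 was 0.203, 0.183, 0.158 and 0.163 in KO uninjected hearts and 0.157, 0.166, 0.167 and 0.167 in WT uninjected hearts. The groups overlapped, and the difference in mean log2 ratio was 0.10 (two-sided exact p = 0.37, from all 70 ways to divide the libraries). Both myosins had the higher mean in KO, and their ratio did not separate the groups.

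In injected hearts Myh7 over Myh6 was 0.0532, 0.0481, 0.0438 and 0.0460 in WT GFP and 0.107, 0.0470, 0.0491 and 0.140 in KO GFP. KO GFP replicates 1 and 4 were again apart, the other 2 KO GFP libraries lay within the WT GFP range, and the difference was 0.69 (exact p = 0.20). The ratio was 0.0441, 0.0446, 0.0403 and 0.0452 in KO aYAP, all below the KO GFP values, a difference of -0.82 (exact p = 0.029, the smallest that 4 against 4 libraries can give; 0.10 after adjustment over the 21 ratio comparisons). In WT aYAP it was 0.0534, 0.0553, 0.0532 and 0.0555, against WT GFP a difference of 0.19 (exact p = 0.057). The difference between KO aYAP and WT aYAP was -0.32 (exact p = 0.029, adjusted p = 0.10), and that between KO aYAP and WT GFP was -0.13 (exact p = 0.14). The change with aYAP in KO minus that in WT was -1.01, with an exact p of 0.00082 over 4900 permutations and an adjusted p of 0.017. The permutations exchanged GFP and aYAP labels within each genotype. Their null is no effect of aYAP in either genotype, so a small p can come from a single genotype. Without KO aYAP replicate 3 the change in KO minus that in WT was -0.97 with an unadjusted exact p of 0.058. Of 16 such fits it alone did not pass at an unadjusted exact p of 0.05. With KO GFP replicates 2 and 3 alone, picked for their low Myh7, the change was -0.33, that with aYAP in KO was -0.14 and the difference between KO GFP and WT GFP was 0.013, given as values with no test.

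Weighted by transcript length, Myh7 made up 13.4% to 14.1% of both myosins in WT uninjected hearts and 13.4% to 16.6% in KO uninjected hearts. In injected hearts its share was 4.12% to 4.97% in WT GFP, 4.41% to 12.1% in KO GFP, 4.96% to 5.16% in WT aYAP and 3.80% to 4.25% in KO aYAP. The 2 experiments were set apart by this share more than any genotype or treatment was, and they differ in AAV9 injection, read length and site, which cannot be told apart here. The share is taken within a library and does not depend on scaling. It does depend on how reads were assigned. Mhrt, which overlaps Myh7, stood at 13.5% to 47.3% of it in injected and 6.40% to 10.3% in uninjected libraries. Myh7 matched Myh6 in 22.2% of stretches of 50 bases and 5.43% of stretches of 150 bases. The part of read assignment in the share was not tested.

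Tnni1 over Tnni3 was 0.441, 0.528, 0.446 and 0.458 in KO uninjected hearts and 0.425, 0.391, 0.333 and 0.392 in WT uninjected hearts. The groups did not overlap, and KO replicate 1, the library with the high levels of both troponins, had the lowest ratio of its group. The difference was 0.28 (exact p = 0.029, adjusted p = 0.10). In injected hearts the ratio was 0.183, 0.205, 0.184 and 0.209 in WT GFP and 0.357, 0.182, 0.256 and 0.444 in KO GFP, a difference of 0.59 with overlap at KO replicate 2 (exact p = 0.14). Of the KO GFP libraries other than replicates 1 and 4, replicate 3 lay above every WT GFP library and replicate 2 below.

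With active YAP the mean ratio of the troponins was higher in WT hearts and lower in KO hearts. The permutation for the interaction refers to no effect of aYAP in either genotype, so it does not test whether these responses differ. It was 0.309, 0.247, 0.252 and 0.210 in WT aYAP, all above WT GFP, a difference of 0.37 (exact p = 0.029, adjusted p = 0.10). It was 0.176, 0.220, 0.136 and 0.160 in KO aYAP, a difference from KO GFP of -0.78 (exact p = 0.057, adjusted p = 0.13). The change in KO minus that in WT was -1.16 (exact p = 0.0037, adjusted p = 0.039, labels exchanged within each genotype). With KO GFP replicates 2 and 3 alone, picked for their low Tnni1, it was -0.72 and the change in KO was -0.34, again with no test. KO aYAP and WT aYAP differed by -0.57 (exact p = 0.057) and KO aYAP and WT GFP by -0.20 (exact p = 0.31).

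Acta1 over Actc1 was at most 0.0140 in every library and gave no call in 7 comparisons. It was 0.00259, 0.00463, 0.00124 and 0.00793 in KO uninjected hearts and 0.00622, 0.00574, 0.0104 and 0.00886 in WT uninjected hearts, the widest of the differences at -1.20 (exact p = 0.11). In injected hearts it ran from 0.00510 to 0.0134 in WT GFP, from 0.00206 to 0.0140 in KO GFP, from 0.00817 to 0.0130 in WT aYAP and from 0.00413 to 0.00868 in KO aYAP. The differences there were -0.17 between KO GFP and WT GFP, -0.27 with aYAP in KO, 0.42 with aYAP in WT, -0.44 between KO aYAP and WT GFP, -0.86 between KO aYAP and WT aYAP and -0.69 for the change in KO minus that in WT, with exact p between 0.086 and 0.83. The direction between KO GFP and WT GFP turned without KO GFP replicate 4 (0.39) or WT GFP replicate 4 (0.11), and that with aYAP in KO turned without KO GFP replicate 2 (0.083).

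**Figure D3:**
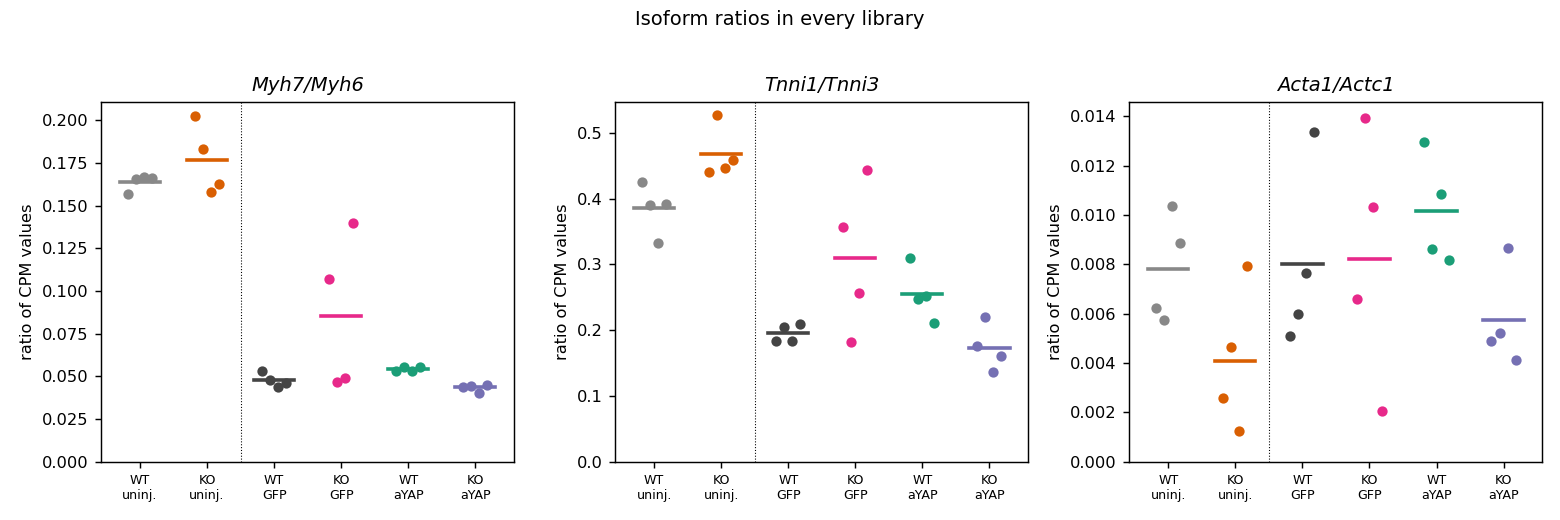
Ratio of the fetal to the adult isoform in every library, as the quotient of the CPM values on a linear axis from 0, by group. Points are libraries, bars are group means (n = 4) and the dotted line separates the 2 experiments. KO GFP hearts spread from 0.0470 to 0.140 for Myh7 over Myh6, and WT aYAP hearts lie above WT GFP hearts for Tnni1 over Tnni3.

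Some pairs of members went together within groups, and not all of them did so in both experiments. Over the 8 uninjected libraries, deviations from the group means on log2(CPM + 1) had a Pearson r of 1.00 for Myl4 with Myl7, 0.95 for Nppb with Acta1, 0.94 for Myh7 with Actc1 and 0.93 for Tnni1 with Tnni3. For the same pairs in this order, the injected libraries gave 0.62, 0.42, 0.06 and -0.45. Over the 16 injected libraries r was 0.95 for Myh6 with Actc1, 0.83 for Myh7 with Tnni1, 0.82 for Myh7 with Myl7 and 0.81 for Nppa with Nppb. The uninjected libraries gave 0.50, 0.53, -0.76 and 0.83 for these pairs. These are descriptions of libraries that share a scaling step, and no test was made of them.

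**Figure D4:**
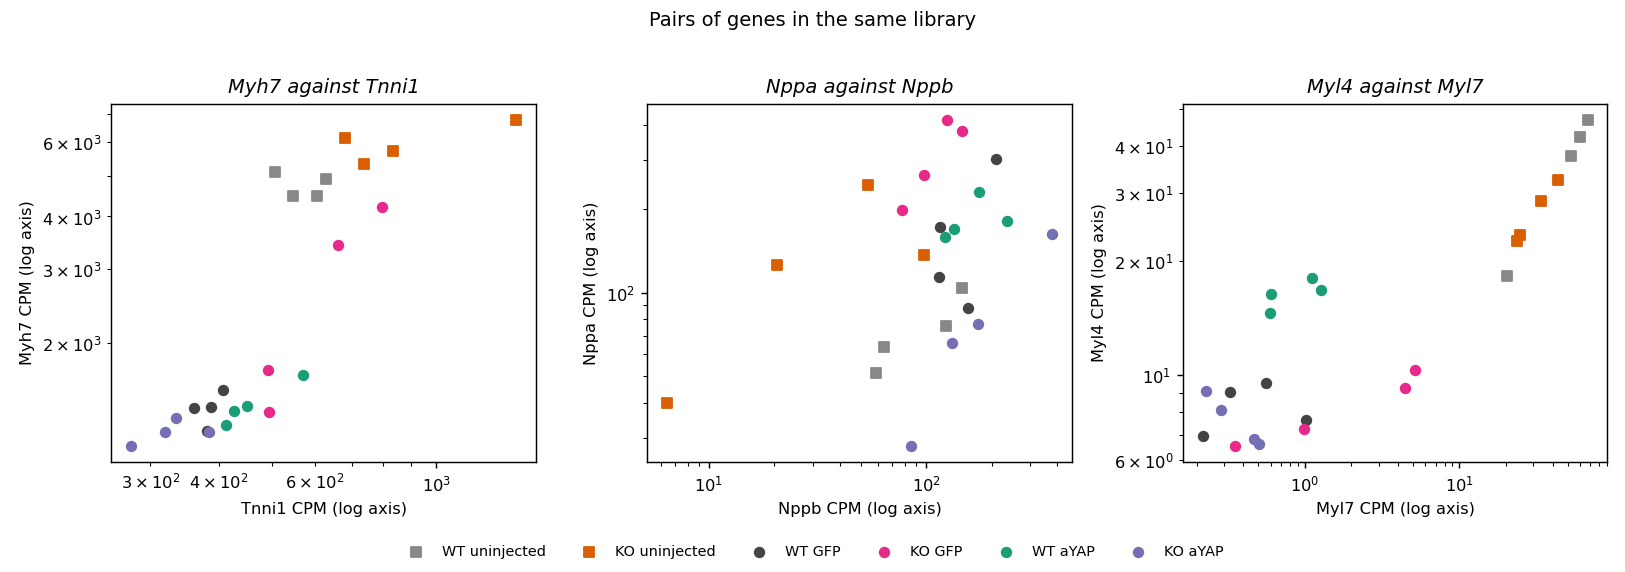
Level of 1 gene against another in the same library, in CPM on log axes. Each point is a library, squares are uninjected and circles injected hearts, coloured by group. KO GFP replicates 1 and 4 are high for both Myh7 and Tnni1, 3 of the 4 KO aYAP libraries are low for Nppa while their Nppb levels lie within those of the other injected groups, and WT aYAP libraries are high for Myl4 at low Myl7.

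Among all tested genes in the 16 injected libraries, those most like a member in log2(CPM + 1) were sought by Pearson r, with the r over the 8 uninjected libraries beside it and no test. Tnni1 was followed by the ventricular repressor Hey2 (r = 0.92, and 0.88 in uninjected hearts), Gm28875 (0.90 and 0.83) and Ptpru (0.89 and 0.24). Tnni3 was followed by the mitochondrial complex I subunit gene Ndufa5 (0.95 and 0.92), Smdt1 (0.95 and -0.10) and Ndufs7 (0.94 and 0.98). Myh6 was followed by Tmod1, which caps thin filaments (0.85 and 0.90), Poldip2 (0.84 and 0.44) and Idh3a (0.82 and 0.63). Myh7 was followed by Fmo2 (0.94 and 0.42), Igfbp3 (0.94 and 0.64) and Itgb3 (0.92 and 0.03). Nppa was followed by Gm13054 (0.99 and 0.47), which overlaps it, Bcat2 (0.93 and 0.58) and Zfp428 (0.89 and -0.33).

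Of the remaining members, Actc1 was followed by the Z-disc gene Actn2 (0.90 and 0.39), Homer2 (0.89 and -0.38) and Ogdh (0.86 and -0.32). Acta1 was followed by Nid2 (0.87 and 0.78), Rgs16 (0.87 and 0.59) and Flt4 (0.86 and 0.32). Nppb was followed by Bcas2 (0.85 and -0.35), Trappc2l (0.83 and -0.18) and Ppa1 (0.82 and 0.47). Myl4 was followed by Armcx1 (0.82 and 0.20), Gm26771 (0.79 and 0.14) and Vsig2 (0.79 and 0.07), and Myl7 by Ahsg (0.91 and -0.41), Igfbp3 (0.90 and -0.33) and Pparg (0.90 and -0.39).

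Other listed genes of adult maturation were called in KO hearts as well. This list and those below were chosen with earlier results of these data known, so their counts are descriptions. Of 20 tested genes for adult isoforms and maturation, 3 rose and 0 fell in uninjected KO hearts, 5 rose and 0 fell in KO GFP hearts, and 0 rose and 5 fell with aYAP in KO, where 6.69%, 13.7% and 14.8% of all tested genes were called in either direction. The median differences were 0.13, 0.13 and -0.17, against medians near 0 over all tested genes (0.00, -0.01 and 0.01). Myoz2, a Z-disc protein of the calcineurin pathway, was higher by 0.54 in KO GFP (adjusted p = 0.0010) and lower by -0.51 with aYAP in KO (adjusted p = 0.0014). Tnnt2, cardiac troponin T, was higher by 0.65 and then lower by -0.62, Pln, the phospholamban that restrains calcium uptake, was higher by 0.53 in KO GFP, and Ckm, muscle creatine kinase, lower by -0.53 with aYAP in KO.

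Among genes of the fetal and stress response beyond the 10, calls with aYAP in KO went in both directions. Of 18 tested, 2 rose and 0 fell in uninjected KO hearts, 4 rose and 0 fell in KO GFP hearts, and 1 rose and 3 fell with aYAP in KO, against the same shares of all tested genes (6.69%, 13.7% and 14.8%). Cacna1h, a T-type calcium channel of the fetal ventricle, was higher by 0.61 in uninjected KO hearts (adjusted p = 0.039) and by 0.77 in KO GFP hearts (adjusted p = 0.0058), and lower by -0.78 with aYAP in KO (adjusted p = 0.0050). Ccn2, a connective tissue growth factor that YAP induces in many cells, was higher by 0.83 in KO GFP (adjusted p = 0.030) from a mean of 64.8 to 117 CPM. Acta2, smooth muscle actin, was the gene that rose with aYAP in KO, by 1.26 (adjusted p = 0.00044). It is also a smooth muscle marker, and of 5 such markers Acta2 and Myh11 rose there (Myh11 by 0.82, adjusted p = 0.013), with summed levels of 641 to 885 CPM in KO GFP and 1137 to 1594 CPM in KO aYAP. The part of smooth muscle in the value of Acta2 was not tested.

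Regulators of the switch were called in both directions. Of 24 tested, 3 rose and 0 fell in uninjected KO hearts, 6 rose and 2 fell in KO GFP hearts, and 4 rose and 3 fell with aYAP in KO, while 6.69%, 13.7% and 14.8% of all tested genes were called. Klf15, a repressor of hypertrophic genes, was at 25.0 to 52.2 CPM in KO uninjected hearts and 9.49 to 10.4 CPM in WT, a rise of 1.87 (SE 0.22, adjusted p = 0.0025). It rose by 2.06 in KO GFP hearts, where it was at 44.9, 18.6, 36.5 and 57.0 CPM (adjusted p = 0.00043), and fell by 1.47 with aYAP in KO (adjusted p = 0.0040). Klf9 rose by 1.10 and Tbx5, a cardiac transcription factor, by 0.85 in KO GFP, and Tbx5 fell by 0.83 with aYAP in KO. Dio2, which activates thyroid hormone, the hormone that drives the myosin switch, fell by 0.82 in KO GFP (adjusted p = 0.0038) and rose by 0.76 with aYAP in KO (adjusted p = 0.0061).

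Of 10 tested genes that process, receive or degrade natriuretic peptides or their second messenger, 1 rose and 1 fell in uninjected KO hearts, 2 rose and 2 fell in KO GFP hearts and 2 rose and 2 fell with aYAP in KO, beside 6.69%, 13.7% and 14.8% of all tested genes. Npr3, the clearance receptor, was at 36.1 to 68.3 CPM in KO uninjected hearts and 16.9 to 19.4 CPM in WT, a rise of 1.36 (adjusted p = 0.0049). It rose by 1.37 in KO GFP, where it was at 76.9, 30.5, 23.0 and 106 CPM with replicates 1 and 4 again the highest, and fell by 1.37 with aYAP in KO. Corin, the protease that activates pro-ANP, rose by 1.29 in KO GFP (adjusted p = 0.0019), and Pde5a, which breaks down cyclic GMP, fell by 0.82 there and rose by 0.85 with aYAP in KO (adjusted p = 0.00032 and 0.00019).

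Markers of cells other than cardiomyocytes moved with the same comparisons, and in whole tissue fewer cells of a type and less RNA per cell cannot be told apart. In uninjected hearts the fibroblast markers summed to 1489.9 to 2271 CPM in KO and 2809 to 2953 CPM in WT, the immune cell markers to 16.3 to 24.7 and 36.0 to 45.3 CPM, the endothelial markers to 968 to 1248 and 1357 to 1492 CPM, and the cardiomyocyte markers to 25052 to 27719 and 21619.7 to 22845 CPM, in each case without overlap. The lists were not uniform there. Of the endothelial markers Kdr alone was called, with a difference of -0.60 (adjusted p = 0.030), and Pecam1 and Emcn had the higher mean in KO. Of the immune cell markers Itgam went against the others, at 1.84 to 3.95 CPM in KO and 0.724 to 2.05 CPM in WT, and Wt1, the single epicardial marker in that table, was at 11.4 to 18.4 CPM in KO and 7.82 to 10.3 CPM in WT. Over all tested genes 13.7% were called between KO GFP and WT GFP and 14.8% with aYAP in KO. Of 6 fibroblast markers, 4 fell in KO GFP hearts and 4 rose with aYAP in KO, their summed level lying between 1313 and 2141 CPM in KO GFP, 2574 and 3054 CPM in WT GFP and 2694 and 3253 CPM in KO aYAP. Of 5 immune cell markers, 4 fell in KO GFP, where they summed to 21.003 to 30.2 CPM against 42.7 to 68.4 CPM in WT GFP. With aYAP in KO 3 of them rose and Itgam fell, and the sum was 44.7 to 56.4 CPM. All 5 erythroid markers fell in KO GFP and 0 were called with aYAP in KO. Of 5 endothelial markers Kdr and Cdh5 fell in KO GFP, with sums of 1091 to 1157 CPM against 1232 to 1382 CPM in WT GFP. With aYAP in KO 2 endothelial markers rose and 1 fell, and the sum was 1260 to 1314 CPM. Of 7 cardiomyocyte markers 2 rose in KO GFP, Tnnt2 and Pln, and the sum of all 7 was 21664 to 25430 CPM against 16865 to 20687 CPM. Tnnt2 and Pln fell with aYAP in KO, where the sum was 18656 to 21238 CPM. Of 6 ventricular markers Hey2 and Irx4 rose in KO GFP and fell with aYAP in KO, Hey2 lying at 27.7, 17.3, 12.2 and 42.2 CPM in KO GFP with replicates 1 and 4 the highest. The part of cell composition in the changes of the 10 genes was not tested.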

How the data were processed

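RNA from mouse hearts was sequenced from strand-specific poly(A) libraries, 8 uninjected and 16 injected. Per the labels and the submitters' processing notes, the authors used cutadapt 2.3 for trimming, HISAT2 2.1.0 for alignment (GRCm38), StringTie 1.3.4 for counting and edgeR 3.26.1 for scaling. The deposited signal values are CPM on scaled library sizes, 1 table for each experiment. They gave whole reads for 100% of values within 0.01 read, except that WT uninjected replicate 1 listed no gene at 1 or 2 reads, and these recovered reads entered the edgeR and DESeq2 alternatives.

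Differences were fitted with limma 3.58.1 (trend, R 4.3.3) on log2(CPM + 1), with p-values adjusted by Benjamini-Hochberg over all 15598 or 14597 tested genes and called under 0.05. The 4 injected groups shared 1 fit. Ratios were compared by exact two-sided permutation, adjusted over 21 comparisons. For the interaction, labels were exchanged within each genotype, which tests for no effect of aYAP in either and not for equal effects. Scripts were tested on simulated data. Alternatives used edgeR 4.0.16, DESeq2 1.42.0, other scalings, filters and covariates, and left out libraries. Symbols matched 15655 of 15667 and 15314 of 15327 identifiers. Members and lists were chosen with earlier results of these data known. All members were named, with at most 4 called genes of each list by smallest adjusted p and, for each member, the 3 genes most like it. Replicate numbers are not said to mark litters, so no pairing was used. Same-numbered libraries did not deviate together (r of -0.19 to 0.10 in uninjected and -0.17 to 0.14 in injected hearts), which cannot show whether litters were shared. Nothing says which libraries came from separate litters, and p-values measure the spread between these libraries.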

Additional observations from a re-analysis of the deposited data

Results flagged for a closer look

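Of 78 groups of 4 values, 3 held a library whose gap to the others exceeded Dixon's critical value for 4 values, where chance gives 3.9. Tnni3 stood at 3177 CPM in KO uninjected replicate 1, against 1482 to 1651 CPM in the other 3 libraries of the group. It stood at 2713 CPM in KO GFP replicate 2, against 1789 to 1923 CPM. The CPM ratio of Myh7 to Myh6 was 0.157 in WT uninjected replicate 1, against 0.166 to 0.167.

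The response to active YAP differed between KO and WT hearts by limma's interaction test for Nppa (-2.38 on the log2 scale), Tnni1 (-1.13) and Myl4 (-1.01). The change with aYAP in KO minus that in WT was -1.01 for the log2 ratio of Myh7 to Myh6 and -1.16 for that of Tnni1 to Tnni3. Both passed a permutation whose null is no effect of aYAP in either genotype, the first not without KO aYAP replicate 3.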

How the results depend on the processing

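Uninjected hearts gave 2 called members with DESeq2 (Myh7 and Tnni1), 1 with the Ddx3y level as a covariate (Acta1), and 0 to 1 when a library was left out. KO GFP against WT GFP gave 1 called member with plain CPM scaling, 1 without limma's trend, 1 with only the groups compared, 0 with KO GFP replicates 2 and 3 alone (libraries picked for low Myh7 and Tnni1, so no test of these), and 1 to 2 when a library was left out. Quantile normalization kept the count of 2 in KO GFP against WT GFP but lost Myh7 (0.72) and gained Actc1 (-0.60). KO aYAP against WT aYAP gave 0 to 1 when a library was left out, and DESeq2 gave 1 in WT aYAP against WT GFP (Myl4). Myh6 in uninjected hearts reversed to -0.12 under quantile normalization. The cause was not tested. Plain CPM scaling and the fit on KO GFP replicates 2 and 3 were chosen after seeing the data.

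With 1 library left out, the log2 ratio of Myh7 to Myh6 ran from 0.034 to 0.15 in uninjected hearts, from 0.40 to 0.92 for KO GFP against WT GFP, from -1.05 to -0.53 for aYAP in KO, from 0.15 to 0.24 for aYAP in WT, from -0.17 to -0.078 for KO aYAP against WT GFP, from -0.34 to -0.28 for KO aYAP against WT aYAP and from -1.24 to -0.72 for the interaction. That of Tnni1 to Tnni3 ran from 0.22 to 0.33 in uninjected hearts, from 0.39 to 0.82 for KO GFP against WT GFP, from -1.01 to -0.58 for aYAP in KO, from 0.27 to 0.46 for aYAP in WT, from -0.32 to -0.086 for KO aYAP against WT GFP and from -0.69 to -0.46 for KO aYAP against WT aYAP and from -1.39 to -0.96 for the interaction. That of Acta1 to Actc1 ran from -1.62 to -0.73 in uninjected hearts, from -0.53 to 0.39 for KO GFP against WT GFP, from -0.84 to 0.083 for aYAP in KO, from 0.23 to 0.70 for aYAP in WT, from -0.66 to -0.16 for KO aYAP against WT GFP, from -1.08 to -0.72 for KO aYAP against WT aYAP and from -1.25 to -0.33 for the interaction.

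With the replicate number as a block, Nppa in the interaction was -2.38 with an adjusted p of 0.052, and no other member's call changed. The block called 2.47% against 6.69% of all tested genes in uninjected hearts and 4.84% against 7.56% in the interaction. The Ddx3y level as a covariate called 12.4% against 6.69% in uninjected hearts. DESeq2 called 1955 genes in uninjected hearts, 67 against 6 between KO aYAP and WT aYAP, 24 against 3 between KO aYAP and WT GFP, and 11 against 0 for aYAP in WT. With only the groups compared, 930 against 1993 genes were called between KO GFP and WT GFP, 1208 against 2156 for aYAP in KO and 15 against 6 between KO aYAP and WT aYAP. Plain CPM scaling shifted the median of all genes by -0.12 in uninjected hearts, -0.11 in KO GFP, 0.13 for aYAP in KO and 0.12 in the interaction, and the share of calls that were higher went from 48.3% to 22.1%, 47.1% to 25.1%, 53.2% to 78.5% and 50.2% to 71.9%.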
